A study of Bos indicus with 5 samples.

Results

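Interferon response genes were followed in the ampulla, the segment of the oviduct that receives the oocyte, in cows of the Nelore breed (Bos indicus). The list held 43 genes, and 39 were found by their symbol among the 24616 genes of the deposited table. OAS1X, BST2 and IFITM1 were not analysed here, and IRF9 had no entry under that symbol, its older symbol ISGF3G being described apart from the 39. RNA sequencing of 5 ampullae, each from a different cow, gave 2 libraries of the LF/LCL group (large follicle and large corpus luteum) and 3 of the SF/SCL group (small follicle and small corpus luteum). A further LF/LCL library was discarded by the authors for its quality. Cows were multiparous and non-lactating, with a health status labelled as healthy, and all had received estradiol benzoate with an intravaginal progesterone device, a prostaglandin F2α analog at device removal and again later, and a GnRH agonist that induced ovulation. The device was removed 42 h before GnRH in LF/LCL and 30 h before it in SF/SCL, and LF/LCL cows alone received prostaglandin when the device was inserted. Tissue was collected on day 4. According to the methods of the study, the cows sequenced had been picked from the extremes of follicle size, corpus luteum area and steroid concentrations, and the tissue spanned the whole oviduct wall on the side of the corpus luteum. Each group is therefore a small, selected sample of cows.

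Interferons of type I are secreted by cells that sense foreign nucleic acid and bind a receptor of the chains IFNAR1 and IFNAR2. The kinases JAK1 and TYK2 then activate factors such as STAT2, which joins IRF9 and switches on a large set of genes whose products block viral replication. In ruminants the conceptus itself makes an interferon, interferon tau, which is known for raising many of these genes in the uterus. The authors state that effects of sperm or of an embryo on the oviduct could not be assessed with their model. The comparison addressed whether the endocrine milieu around ovulation was accompanied by a different level of these transcripts in the ampulla.

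Library depth ran from 13418278 to 19592174 reads assigned to genes, and 17431 to 17653 genes had at least 1 read. OVGP1, the oviduct glycoprotein of secretory cells, had 117179 to 147247 normalized reads, and FOXJ1, the regulator of ciliated cells, 8481 to 12698, so both cell types of the oviduct epithelium were represented in every library. All values below are normalized reads, which are read counts divided by the size factor of the library. All 39 interferon response genes had a mean over 5 normalized reads and entered the test. The lowest read number of any of them in any library was 8 (ISG20), and for the other 38 it was 98 or more.

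LF/LCL replicate 2 stood apart from the other 4 libraries in most of these genes. It was the highest library for 33 of the 39 genes, where it was the highest for 20.9% of all 15815 genes tested. In 28 of the 39 it was over 2-fold above each of the other 4 libraries, against 1.45% of all genes tested. The median interferon response gene had 3.01 times as many normalized reads in LF/LCL replicate 2 as in the median of the other 4 libraries, while the median over all genes tested was 0.994 times. LF/LCL replicate 1, the other cow of the group, lay within the SF/SCL range for 24 genes, above it for 9 and below it for 6. Its log2 value was closer to the SF/SCL mean than to LF/LCL replicate 2 in 34 of the 39 genes, against 50.2% of all genes tested. No test was applied to this pattern, because it rests on 1 cow. LF/LCL replicate 2 held 16171541 reads and 17545 genes with a read, inside the range of the other libraries.

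**Figure D1:**
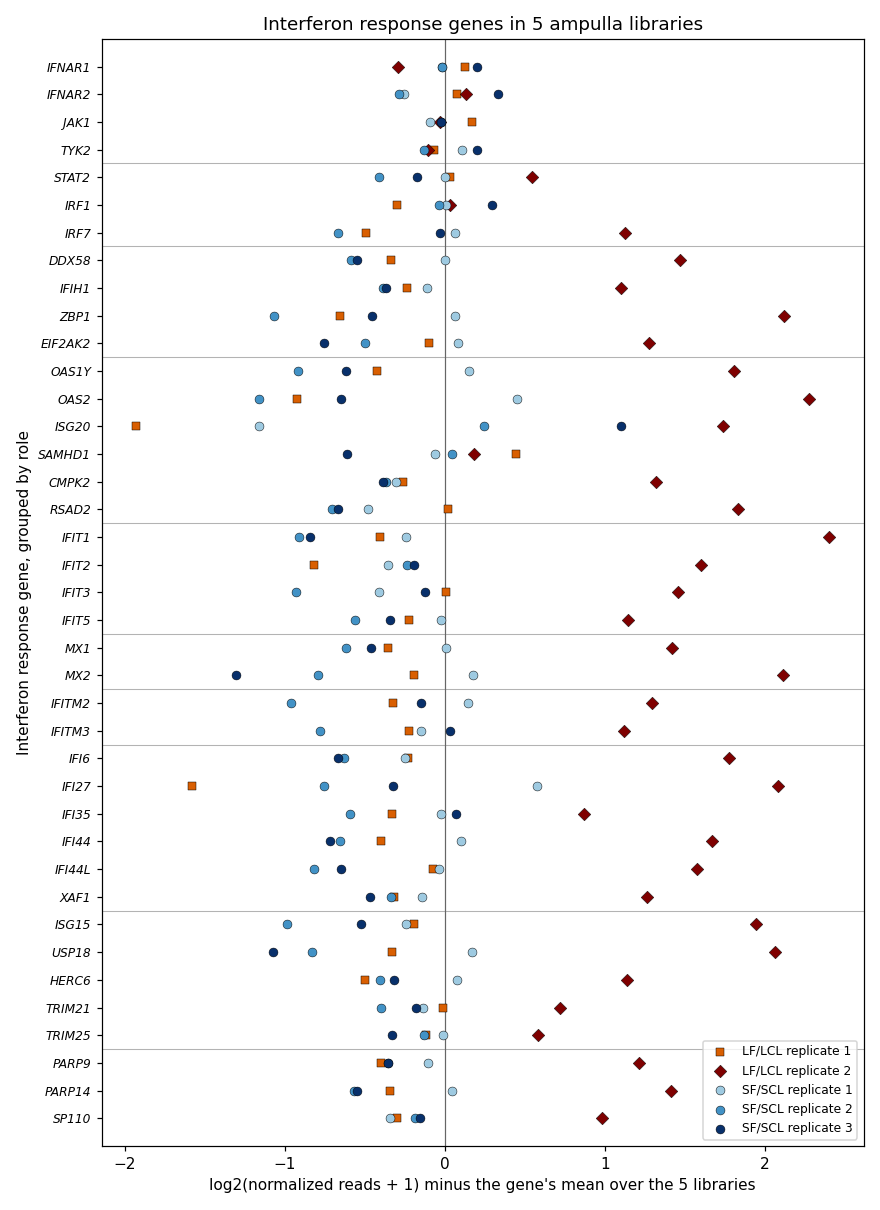
Each point is the log2(normalized reads + 1) of a gene in 1 library minus the mean of that gene over the 5 libraries, for the 39 interferon response genes grouped by role. LF/LCL replicate 2 (dark red diamonds) lies to the right of all other points in 33 genes, whereas LF/LCL replicate 1 (orange squares) lies among the SF/SCL libraries (blue circles) in 24 genes.

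With limma on log2(normalized reads + 1), 0 of the 39 genes had an adjusted p under 0.05 between LF/LCL and SF/SCL, as was the case for all 15815 genes tested (0.0%). The smallest adjusted p of an interferon response gene was 0.362 (RSAD2). An unadjusted p under 0.05 was found for 5 of the 39, all higher in LF/LCL, where 11.5% of all genes tested had one and 5.64% had one with the higher level in LF/LCL. The edgeR quasi-likelihood test gave 0 adjusted calls and 12 unadjusted ones among the 39, against 0.0% and 11.6% of all genes. In bulk tissue, fewer cells of a type and less RNA per cell cannot be told apart. The fitted log2 fold change (LF/LCL over SF/SCL) was above 0 in 35 of the 39 genes, with a median of 0.77. Over all genes tested it was above 0 in 50.8%, with a median of 0.005. It was above 1 in 12 of the 39 genes and in 4.98% of all genes. The groups did not overlap in 8 of the 39 genes, all higher in LF/LCL, where 30.1% of all genes tested did not overlap and 15.0% did so with the higher level in LF/LCL. Without LF/LCL replicate 2 the median log2 fold change of the 39 genes was 0.04 and 25 were above 0, against 51.2% of all genes, and without LF/LCL replicate 1 the median was 1.67 and 36 were above 0.

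The 4 receptor chains and kinases were not highest in LF/LCL replicate 2. IFNAR1 had 1099 and 820.8 normalized reads in LF/LCL replicates 1 and 2, compared with 992.9, 996.3 and 1158 in SF/SCL replicates 1, 2 and 3. It was lowest in LF/LCL replicate 2, the library in which the response genes were highest. IFNAR2, the second chain, had 466.8 and 485.9 in the LF/LCL cows, compared with 372.2, 363.7 and 558.1 in the SF/SCL cows. In IFNAR2 both LF/LCL cows lay within the SF/SCL range. The kinase JAK1 had 4536 and 3955 in the LF/LCL cows, compared with 3776, 3967 and 3962 in the SF/SCL cows. Its partner TYK2 had 1204 and 1178 in the LF/LCL cows, compared with 1361, 1154 and 1452 in the SF/SCL cows. The 4 genes had log2 fold changes from -0.14 (TYK2) to 0.17 (IFNAR2) with limma adjusted p from 0.721 to 0.815. The highest library had between 1.20 times (JAK1) and 1.53 times (IFNAR2) the value of the lowest.

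Transcription factors of the pathway differed among themselves. STAT2 (ENSBTAG00000004380), a subunit of the factor formed after receptor activation, had 1564 and 2231 normalized reads in the LF/LCL cows, compared with 1531, 1151 and 1357 in the SF/SCL cows. No overlap was seen between the groups, but LF/LCL replicate 1 exceeded the highest SF/SCL library by a small margin. Its log2 fold change was 0.48 ± 0.19 (SE, limma unadjusted p = 0.0462, adjusted p = 0.424). IRF7, which is induced by interferon and drives further interferon expression, had 770.5 and 2364 in the LF/LCL cows, compared with 1130.1, 680.8 and 1058 in the SF/SCL cows. LF/LCL replicate 1 lay within the SF/SCL range, and the log2 fold change was 0.53 ± 0.49 (SE) with a limma adjusted p of 0.736. IRF1, a factor also induced by interferon gamma, had 1383 and 1739 in the LF/LCL cows, compared with 1706, 1657 and 2085 in the SF/SCL cows. It was the only factor of the 3 with a fitted difference below 0, at -0.22 ± 0.16 (SE), and its highest library was SF/SCL replicate 3.

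Sensors of nucleic acid were all highest in LF/LCL replicate 2, by over 2-fold. ZBP1, a sensor of nucleic acids in the Z form, had 195.9 and 1348 normalized reads in the LF/LCL cows, compared with 323.3, 146.9 and 225.4 in the SF/SCL cows. EIF2AK2, a kinase that halts translation when it binds double-stranded RNA, had 633.3 and 1643 in the LF/LCL cows, compared with 717.4, 481.1 and 401.4 in the SF/SCL cows. DDX58, a cytosolic sensor of viral RNA also known as RIG-I, reached 5458 in LF/LCL replicate 2 and lay between 1317 and 1979.6 in the other libraries. IFIH1, a sensor of long double-stranded RNA, had 2518 against 899.2 to 1089.6. The log2 fold changes of the 4 sensors ran from 0.72 ± 0.38 (SE, IFIH1) to 1.22 ± 0.82 (SE, ZBP1), and their limma adjusted p from 0.477 (EIF2AK2) to 0.624 (ZBP1). The groups overlapped in each of them.

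Of the enzymes that act on RNA and nucleotides, RSAD2 had the smallest p of the 39 genes. RSAD2 (ENSBTAG00000016061), known as viperin, converts a nucleotide into a chain terminator of viral polymerases. It had 947.6 and 3318 normalized reads in the LF/LCL cows, compared with 667.5, 572.0 and 588.1 in the SF/SCL cows, so that both LF/LCL cows lay above all SF/SCL cows. The group means were 2133 ± 1676 (SD, n = 2) and 609.2 ± 51.1 (SD, n = 3), and the log2 fold change was 1.54 ± 0.50 (SE, limma unadjusted p = 0.0227, adjusted p = 0.362). Without LF/LCL replicate 2 the log2 fold change was 0.64, with a limma unadjusted p of 0.0119 and an adjusted p of 0.374. DESeq2 called RSAD2 (adjusted p = 0.00756), its only call among the 39 genes, where it called 2.89% of all genes tested, 1.38% with the higher level in LF/LCL. CMPK2, a nucleotide kinase whose gene lies next to RSAD2, had 501.9 and 1506 in the LF/LCL cows, compared with 487.6, 467.1 and 460.4 in the SF/SCL cows. The 3 SF/SCL cows differed little in CMPK2, and LF/LCL replicate 1 was just above them. Its log2 fold change was 0.88 ± 0.44 (SE, limma adjusted p = 0.51).

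The oligoadenylate synthetases make the messenger that activates RNase L. OAS2 (ENSBTAG00000014628) had 148.9 and 1373 normalized reads in the LF/LCL cows, compared with 387.8, 125.9 and 180.3 in the SF/SCL cows, and LF/LCL replicate 2 was 8.34 times the median of the other 4 libraries. OAS1Y had 27379 in LF/LCL replicate 2 and 4143 to 8702 in the other libraries. For both genes SF/SCL replicate 1 was second highest, and LF/LCL replicate 1 lay within the SF/SCL range. OAS1 copies resemble each other in cattle, so reads that fit several copies may not have been counted and the level of OAS1Y is uncertain. ISG20, an RNA exonuclease, had 9.38 and 130.7 in the LF/LCL cows, compared with 16.6, 45.9 and 83.7 in the SF/SCL cows, from 8 to 135 reads. Its libraries were spread more than those of any other gene of the 39, with a ratio of 13.9 from highest to lowest, and its log2 fold change was -0.16 ± 1.20 (SE). SAMHD1, which breaks down deoxynucleotides, had 371.8 and 309.7 in the LF/LCL cows, compared with 261.0, 281.3 and 178.1 in the SF/SCL cows. No overlap was seen between the groups in SAMHD1, but here LF/LCL replicate 1 was the highest library, and its log2 fold change was 0.52 ± 0.24 (SE, limma adjusted p = 0.477).

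The IFIT proteins bind viral RNA and limit its translation. IFIT1 (ENSBTAG00000007881) had 602.8 and 4215 normalized reads in the LF/LCL cows, compared with 674.8, 424.3 and 445.4 in the SF/SCL cows. LF/LCL replicate 2 was 6.25 times the next library, and the other 4 libraries differed by no more than 1.59 times. The log2 fold change of IFIT1 was the highest of the 39 genes, 1.66 ± 0.79 (SE), with a limma adjusted p of 0.491, and it was 0.26 without LF/LCL replicate 2. IFIT3 had 274.4 and 752.1 in the LF/LCL cows, compared with 204.8, 143.0 and 250.1 in the SF/SCL cows. No overlap was seen between the groups in IFIT3, and its log2 fold change was 1.22 ± 0.47 (SE, limma unadjusted p = 0.0402, adjusted p = 0.415). IFIT2 had 618.5 in LF/LCL replicate 2 and only 114.9 in LF/LCL replicate 1, the lowest of the 5 libraries, with 159.1 to 178.1 in SF/SCL. IFIT5 had 5255 in LF/LCL replicate 2 and 1610.3 to 2333 in the others. Members of this family share sequence, so that their levels are uncertain where reads could map to more than one copy.

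MX1 and MX2 are dynamin-like GTPases that trap viral components. MX2 (ENSBTAG00000008471) had 1835 and 9058 normalized reads in the LF/LCL cows, compared with 2370.5, 1209 and 846.7 in the SF/SCL cows. MX1 had 26938 in LF/LCL replicate 2, and 6572 to 10134 in the other libraries. In both genes the order was LF/LCL replicate 2, then SF/SCL replicate 1, then LF/LCL replicate 1. The log2 fold changes were 1.60 ± 0.75 (SE) for MX2 and 0.89 ± 0.52 (SE) for MX1, and without LF/LCL replicate 2 that of MX1 was 0.004. Of the IFITM proteins, which hinder the entry of viruses through membranes, IFITM3 had 9155 in LF/LCL replicate 2 and 2449.6 to 4297 in the others, and IFITM2 had 941.8 against 196.6 to 424.2. Both IFITM genes have close copies, and their values carry the same uncertainty.

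**Figure D2:**
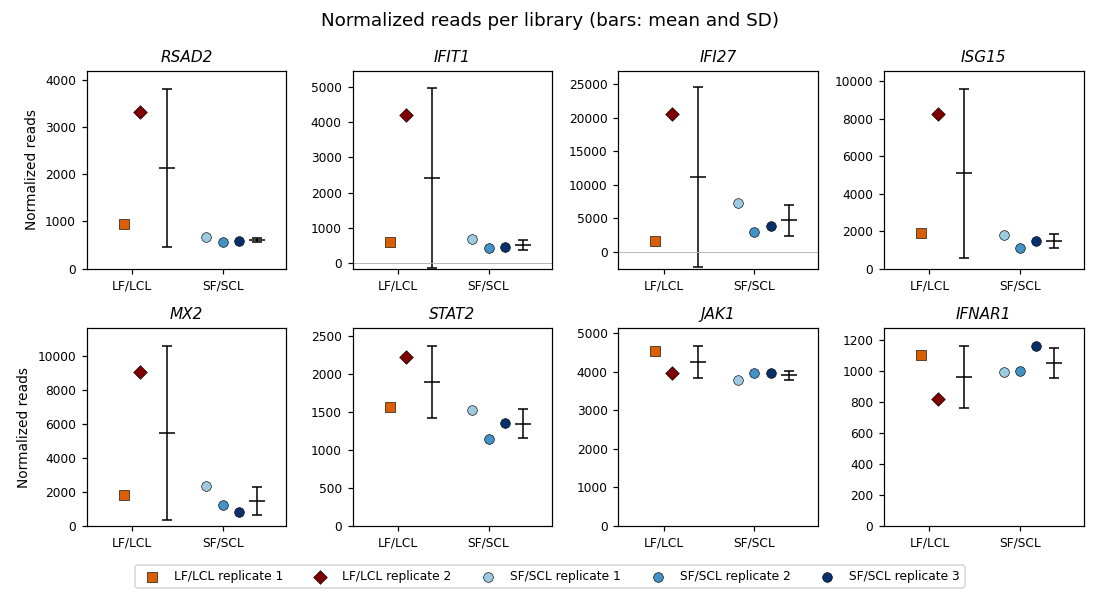
Normalized reads (linear axis from 0, or below it where the SD bar reaches below 0) of 8 interferon response genes in each library, with the group mean and SD at the right of each group. RSAD2, IFIT1, IFI27, ISG15 and MX2 show 1 LF/LCL library far above the other 4, STAT2 shows a smaller excess in the same library (2231 against 1564 or less), and JAK1 and IFNAR1 show none.

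Among the remaining interferon-inducible genes, IFI27 (ENSBTAG00000003152), a small membrane protein, had the widest ratio between both LF/LCL cows after ISG20. It had 1631 normalized reads in LF/LCL replicate 1, the lowest of the 5 libraries, and 20605 in LF/LCL replicate 2, the highest, with 7256, 2879 and 3885 in SF/SCL. The group means, 11118 ± 13417 (SD, n = 2) and 4673 ± 2293 (SD, n = 3), therefore describe no cow of LF/LCL. Its log2 fold change was 0.42 ± 1.06 (SE) with all libraries and -1.41 without LF/LCL replicate 2 (limma unadjusted p = 0.0401, adjusted p = 0.48). IFI6, a relative of IFI27, had 9560.4 and 38422 in the LF/LCL cows, compared with 9419, 7253 and 7057 in the SF/SCL cows. In IFI6 the groups did not overlap, with LF/LCL replicate 1 only slightly above SF/SCL replicate 1, and the log2 fold change was 1.29 ± 0.56 (SE, limma adjusted p = 0.464). IFI44L had 1199.7 and 3755 in the LF/LCL cows, compared with 1230.0, 716.5 and 803.8 in the SF/SCL cows, with a log2 fold change of 1.25 ± 0.50 (SE, limma unadjusted p = 0.0492, adjusted p = 0.431). Its neighbour IFI44 had 4442 in LF/LCL replicate 2 and 850.0 to 1496 elsewhere. XAF1, a proapoptotic protein, had 2926 against 880.0 to 1104, and IFI35 had 951.5 against 345.8 to 547.3.

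The ISG15 system attaches a ubiquitin-like protein to its targets. ISG15 (ENSBTAG00000014707), the modifier itself, had 1885 and 8276 normalized reads in the LF/LCL cows, compared with 1818, 1083 and 1496 in the SF/SCL cows. Both LF/LCL cows lay above all SF/SCL cows, LF/LCL replicate 1 by a small margin, and the log2 fold change was 1.46 ± 0.62 (SE, limma adjusted p = 0.454). USP18, which removes ISG15 and restrains the receptor, had 3364 in LF/LCL replicate 2 and 381.0 to 905.6 in the others. HERC6, grouped here with the ISG15 system, had 7631 against 2457 to 3652. TRIM21, a cytosolic antibody receptor and ubiquitin ligase, had 625.1 and 1037 in the LF/LCL cows, compared with 572.9, 478.0 and 555.9 in the SF/SCL cows. No overlap was seen between the groups in TRIM21, with a log2 fold change of 0.59 ± 0.23 (SE, limma unadjusted p = 0.041, adjusted p = 0.418). TRIM25, the ligase that acts on RIG-I, had 1497 against 797.4 to 992.9. PARP9 and PARP14, ADP-ribosyltransferases of the interferon response, had 3948 against 1289 to 1582 and 4777 against 1214 to 1854. The nuclear body protein SP110 had 484.0 in LF/LCL replicate 2 and 192.3 to 218.9 in the others.

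Some of these genes lie side by side in the genome. In the RefSeq gene table of the Bos indicus assembly NIAB-ARS_B.indTharparkar_mat_pri, which is not the assembly of the deposited counts, 34 of the 43 symbols were found. No other protein-coding gene of that table lay between MX1 and MX2, RSAD2 and CMPK2, IFIT2 and IFIT3, or IFI44 and IFI44L. DTX3L lay between PARP9 and PARP14, and IL10RB between IFNAR1 and IFNAR2. Neighbours that were over the median of the other 4 libraries in LF/LCL replicate 2 were so to different degrees in some pairs and to like degrees in others. The ratio was 5.95 times in MX2 and 3.55 times in MX1, and 5.29 times in RSAD2 and 3.16 times in CMPK2. It was 3.73 times in IFIT2 and 3.31 times in IFIT3, 4.57 times in IFI44 and 3.75 times in IFI44L, and 2.97 times in PARP9 and 3.61 times in PARP14. The receptor neighbours were 0.784 times (IFNAR1) and 1.16 times (IFNAR2) that median.

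Leaving LF/LCL replicate 2 aside, the other 4 libraries were far closer to each other. The median ratio of the highest to the lowest library was 3.93 over the 5 libraries and 1.55 over the 4, while for all genes tested these medians were 1.55 and 1.47. In 9 of the 39 genes the highest of the 4 was still over 2-fold above the lowest, with the widest ratios in ISG20 (8.92), IFI27 (4.45) and OAS2 (3.08). SF/SCL replicate 1 was the highest of the 4 for 21 genes, against 20.0% of all genes tested, and SF/SCL replicate 2 was the lowest of the 5 libraries for 21 genes, against 18.7%. SF/SCL cows thus also differed among themselves. The difference between both LF/LCL libraries was wider than the whole SF/SCL range on the log2 scale in 35 of the 39 genes, against 31.3% of all genes tested.

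**Figure D3:**
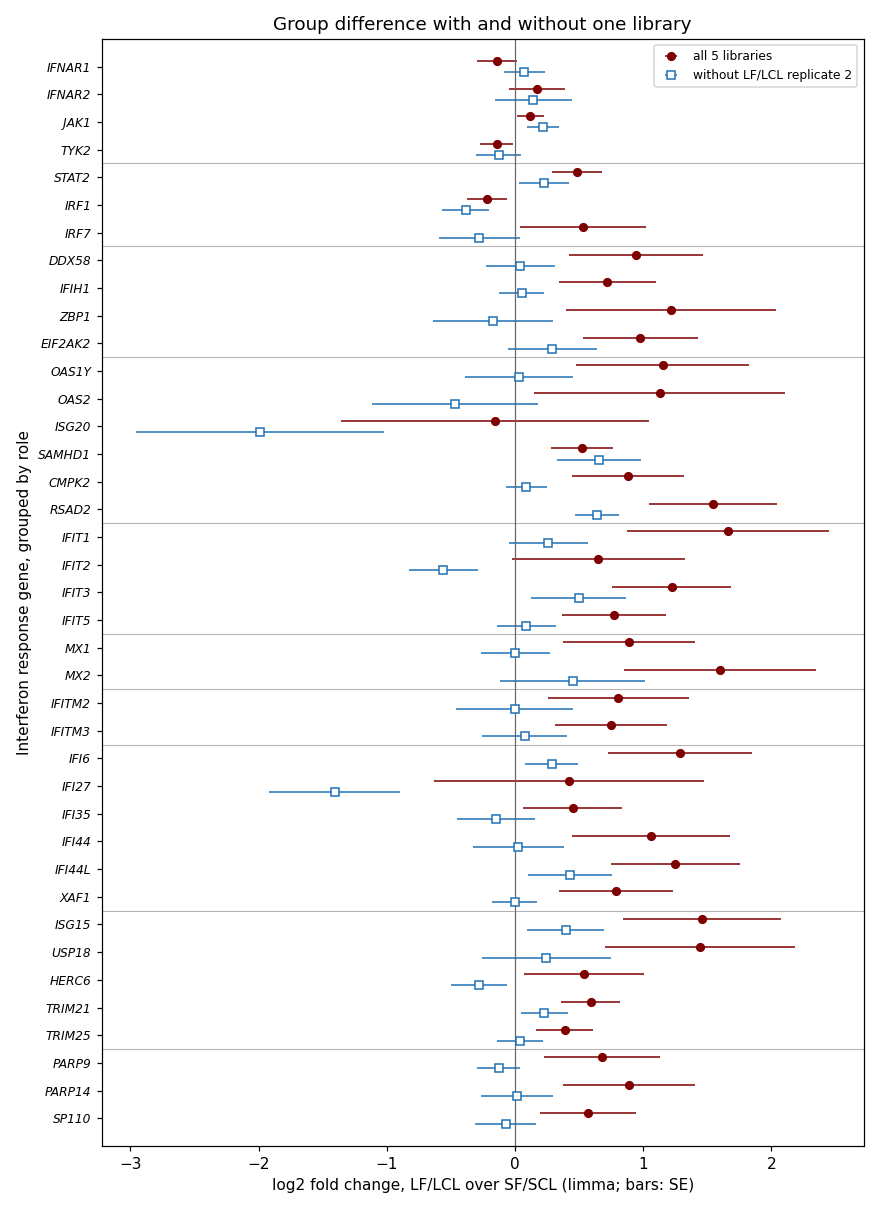
Log2 fold change of LF/LCL over SF/SCL with its SE (limma) for the 39 interferon response genes, from all 5 libraries (filled circles) and without LF/LCL replicate 2 (open squares), where the lone LF/LCL library is assumed to vary like the others. The median moves from 0.77 to 0.04, and IFI27 and ISG20 move furthest to the left of 0.

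Without LF/LCL replicate 2, 2 of the 39 genes had an unadjusted p under 0.05 (RSAD2 higher and IFI27 lower in LF/LCL replicate 1), against 9.89% of all 15758 genes then tested, and 0 had an adjusted p under 0.05. Fitted differences then ran from -1.99 (ISG20) to 0.66 (SAMHD1). A filter on the spread also bears on these genes. Keeping a gene only where its mean over the 5 libraries exceeded its SD over them removed 7 of the 39 (ZBP1, OAS2, IFIT1, MX2, IFI27, ISG15 and USP18), against 1.95% of all genes tested. Here the filter on the mean alone left 15815 genes, and adding the filter on the spread left 15507. The methods of the study name a filter of this kind, and over which libraries it was computed there was not given in the sources used here. The number of genes analysed there equals the count left here by the mean alone. The filter on the spread as computed here was therefore not what set that number. The 32 interferon response genes left by the filter on the spread had a median log2 fold change of 0.70.

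Other genes of the pathway were read from a separate list, of which 95 entries passed the filter on the mean. Among them 10 had an unadjusted p under 0.05, of which 8 favoured LF/LCL and 2 (IFNT and TRAF3) favoured SF/SCL, and 0 had an adjusted p under 0.05 with limma. The share with an unadjusted p under 0.05 was thus near the 11.5% of all genes tested, of which 5.64% were higher in LF/LCL. Of 49 other interferon-induced genes tested, LF/LCL replicate 2 was the highest library in 37 and over 2-fold above all others in 11, against 20.9% and 1.45% of all genes tested. It was the highest library in 5 of 14 negative regulators and in 10 of 20 regulatory factors and sensing adaptors. It was over 2-fold above all others in 0 and 1 of these, respectively. Lists of this size leave little room to tell such a share from the 1.45% of all genes. The 1 gene was TLR9, which was low, with 27 reads in LF/LCL replicate 2 and 2 to 16 in the other libraries.

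The 6 other pathway genes with the smallest p were CXCL10, GBP4, IFNT, LY6E, TNFSF10 and ZC3HAV1. CXCL10, a chemokine for T cells, had 423.4 and 598.2 normalized reads in the LF/LCL cows, compared with 190.3, 295.3 and 192.1 in the SF/SCL cows. Here both LF/LCL cows lay well above all SF/SCL cows, with a log2 fold change of 1.18 ± 0.27 (SE, limma unadjusted p = 0.00411, adjusted p = 0.253), and DESeq2 called it (adjusted p = 0.0119). GBP4, an interferon-induced GTPase, had 1202 and 1907 in the LF/LCL cows, compared with 856.7, 483.4 and 784.5 in the SF/SCL cows, with a log2 fold change of 1.14 ± 0.31 (SE, limma adjusted p = 0.313), and was also called by DESeq2 (adjusted p = 0.0251). The death ligand TNFSF10 had 640.3 and 663.0 in LF/LCL against 377.4, 213.7 and 454.0 in SF/SCL. LY6E, a membrane protein, had 30126 and 50625 against 27177, 21711 and 17475, and the RNA-binding protein ZC3HAV1 had 1628 and 1810.0 against 1493, 1232 and 1338. In these 5 genes the groups did not overlap, where 15.0% of all genes tested did so with the higher level in LF/LCL. Choice by the smallest p favours such genes. None of the 5 was over 2-fold higher in LF/LCL replicate 2 than in every other library.

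Interferon transcripts themselves were scarce. Of 12 matched entries for interferons, 2 had a mean over 5 normalized reads. IFNB1 had 18 and 7 reads in the LF/LCL cows, compared with 28, 29 and 18 in the SF/SCL cows. The entry named IFNT, for interferon tau, had 2 reads and 1 read in the LF/LCL cows, compared with 9, 10 and 16 in the SF/SCL cows, with a log2 fold change of -2.20 ± 0.72 (SE, limma unadjusted p = 0.0214, adjusted p = 0.358). LF/LCL replicate 2 was the lowest library for both. IFNB3, which was below the filter, had 11 reads in LF/LCL replicate 2 and from 0 to 2 in the other libraries. Interferon genes form families of near-identical copies, and at such read numbers these entries are uncertain.

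**Figure D4:**
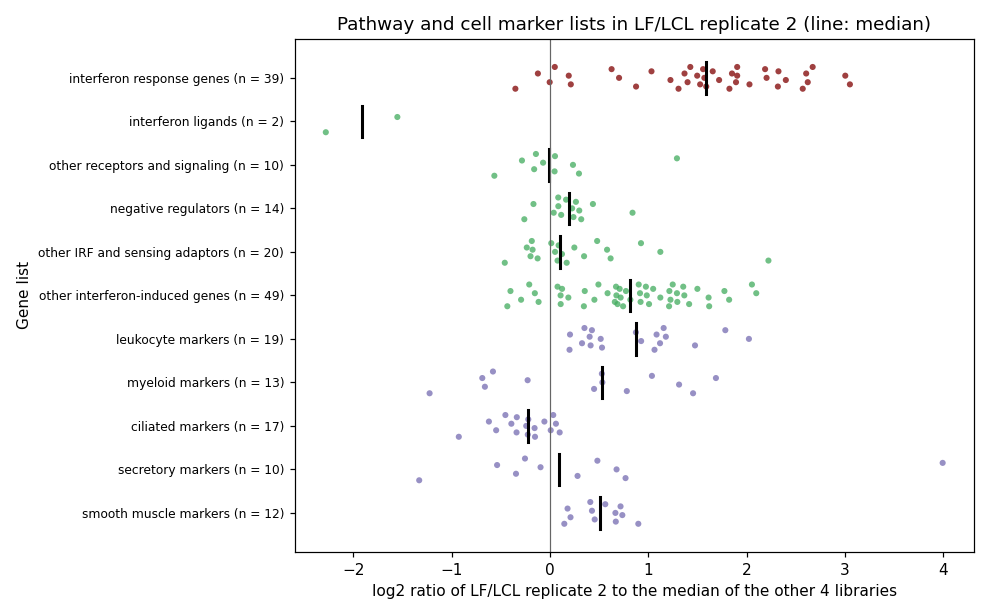
Log2 ratio of LF/LCL replicate 2 to the median of the other 4 libraries, with 1 point per gene and the list median as a black line, for the interferon response genes (dark red), other pathway lists (green) and cell type markers (purple). The median was 1.59 for the interferon response genes, 0.82 for other interferon-induced genes, 0.88 for leukocyte markers and -0.23 for ciliated cell markers.

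The summed level of 22 leukocyte marker entries was 3167 and 4208 normalized reads in LF/LCL and 2017 to 2236 in SF/SCL, so that both LF/LCL cows were higher, and 15 of the 22 were highest in LF/LCL replicate 2. CD247, a chain of the T cell receptor complex, had 520.7 and 1051 in LF/LCL against 200.5 to 286.5, and PTPRC, present on all leukocytes, had 689.6 and 816.0 against 458.5 to 638.4. In no library was PTPRC or the T cell gene CD3E at 0. The 13 myeloid markers summed to 3342 and 7934 in LF/LCL and 2499 to 5629.9 in SF/SCL. Of these, 8 of 13 were highest in LF/LCL replicate 2, and 0 were over 2-fold above all other libraries. CD68, CD14, CD163, ITGAM and LYZ were not highest there, and CD14 was lowest. Much of the sum in LF/LCL replicate 2 came from the complement genes C1QA, C1QB and C1QC, with 1287, 2011 and 1763 normalized reads. The other libraries had 354.4 to 877.5, 500.8 to 1070 and 384.7 to 908.7 of these. CSF1R had 1286 in LF/LCL replicate 2 and 1260 in SF/SCL replicate 1. Within SF/SCL the myeloid sum was 5629.9 in replicate 1, 2499 in replicate 2 and 4931 in replicate 3. The part of immune cells in the level of the response genes was not tested.

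Markers of the oviduct wall followed another order. The 12 smooth muscle markers summed to 128930 and 66783 in LF/LCL and 17974 to 44526 in SF/SCL, and LF/LCL replicate 1 was the higher of both LF/LCL cows. Ciliated cell markers (18 entries) summed to 58792 and 73378 in LF/LCL and 86227 to 91084 in SF/SCL, and 0 of them were highest in LF/LCL replicate 2. Endothelium markers (11 entries) summed to 8854 and 5443 in LF/LCL and 6415 to 9571 in SF/SCL. Fibroblast markers (12 entries) summed to 96146 and 41631 in LF/LCL and 25652 to 52794 in SF/SCL. Secretory cell markers (10 entries) summed to 164820 and 145310 in LF/LCL and 148400 to 202350 in SF/SCL. The part of these cells in the level of the response genes was not tested.

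**Figure D5:**
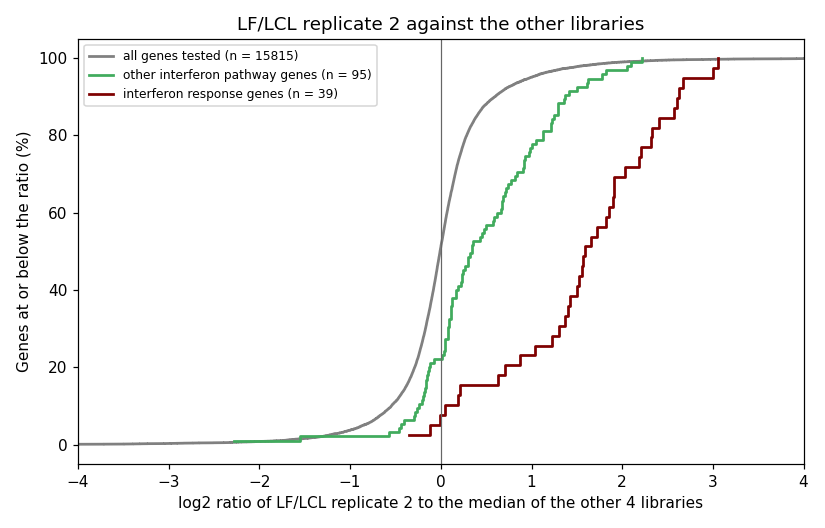
Cumulative share of genes (%) against the log2 ratio of LF/LCL replicate 2 to the median of the other 4 libraries, for all 15815 genes tested (grey), 95 other interferon pathway genes (green) and the 39 interferon response genes (dark red). The curve of the response genes lies to the right, with a median of 1.59, while the curve of all genes is centred near 0.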

How the data were processed

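Per the labels, 5 ampulla libraries (2 LF/LCL, 3 SF/SCL) came from different cows, and titles gave the groups. The deposited table holds a normalized signal, that is, read counts scaled by DESeq size factors. The authors filtered reads with seqyClean, aligned them with TopHat2 2.0.8 and Bowtie2 2.1.0 to the masked UMD cattle genome. They then counted uniquely mapped, unambiguous reads per Ensembl gene with HTSeq 0.5.4p2. Use of strand was not given in the sources used here, so overlapping genes are uncertain.

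Division by one step per library returned whole reads for 100% of nonzero values (tolerance 0.05 reads). The test was limma 3.58.1 (lmFit, eBayes with trend and robust estimation) on log2(value + 1) for the 15815 genes with a mean over 5, two-sided, with Benjamini-Hochberg adjustment over all of them. A log2 fold change on this scale understates that of low genes. On the recovered reads, edgeR 4.0.16 (quasi-likelihood, TMM) and DESeq2 1.42.0 were run as alternatives, beside pseudocounts of 0.5 and 5, no filter, a filter on the spread (mean above the SD over the 5 libraries), TMM and library total scaling, plain eBayes, and each library left out. Fits were tested on simulated data. P-values set the group difference against the spread between these cows, which limma moderates over genes.

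Genes, lists and tests were chosen with earlier results of these data known. Full values are given for up to 12 genes of the 39 with the smallest p, 6 with the widest ratio between libraries and a mean over 50, the receptor chains, kinases and transcription factors, and 6 other pathway genes with the smallest p. Other names were chosen after their values were seen. Promoter sequences were not used here, and 1 gene named by this rule is not reported here. No batch was given in the labels.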

Additional observations from a re-analysis of the deposited data

How the results depend on the processing

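With 2 LF/LCL cows, every group difference rests on 1 or both of them, and leaving out an LF/LCL library leaves a lone cow assumed to vary like the others. No paired analysis was possible because the labels carry animal numbers that differ between the groups. No interferon response gene reached an adjusted p under 0.05 with limma, and the count was 0 under both other pseudocounts, both other filters, TMM and library total scaling, edgeR, plain eBayes and without each replicate (from 0 to 0), and 1 with DESeq2, which called 457 of all genes. The 5 genes with an unadjusted p under 0.05 became 2 with library total scaling (11.9% of all genes), 12 with edgeR (11.6%), 20 with DESeq2 (12.7%) and 1 with plain eBayes (10.5%), and lay between 1 and 32 when one replicate was left out, the highest without LF/LCL replicate 1 (7.84% of all genes). The count of 8 genes without overlap between the groups ran from 9 to 35 in those fits, with 9 without SF/SCL replicate 2 or 3, 15 without LF/LCL replicate 2, 22 without SF/SCL replicate 1 and 35 without LF/LCL replicate 1. Fewer libraries in a group make overlap less likely by construction. LF/LCL replicate 1 alone lay above the SF/SCL range in 23.1% of the 39 genes and below it in 15.4%. Of all genes tested, 29.0% lay above and 28.1% below, so the 15 genes were a smaller share than that of all genes. For the fits without another library, the share over all genes was not computed. The median log2 fold change of 0.771 ran from 0.042 to 1.665 in the fits without one replicate. Of the other pathway genes, 10 with an unadjusted p under 0.05 became 17 with DESeq2 and ran from 6 to 36. The count of all genes with an adjusted p under 0.05 ran from 0 to 0 without one replicate. Under the other alternatives these results stayed within 1.5 times their count or within the median SE.

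Signs changed in 13 genes. ISG20 went from -0.157 to 0.538 with edgeR and 0.53 with DESeq2, and RSAD2 alone passed the threshold with DESeq2 (1.811). The cause was not tested. Across the fits without one replicate, where signs turned mainly without LF/LCL replicate 2, HERC6 ran from -0.281 to 1.354, IFI27 from -1.408 to 2.251, IFI35 from -0.147 to 1.047, IFIT2 from -0.558 to 1.859, IFITM2 from -0.003 to 1.616, IFNAR1 from -0.35 to 0.071, IRF7 from -0.277 to 1.339, ISG20 from -1.989 to 1.676, OAS2 from -0.469 to 2.726, PARP9 from -0.128 to 1.487, SP110 from -0.071 to 1.213, XAF1 from -0.003 to 1.578 and ZBP1 from -0.17 to 2.607.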

Other observations

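Genes outside the interferon lists also stood apart in LF/LCL replicate 2. They were chosen after their values were seen, by the ratio of LF/LCL replicate 2 to the next library among genes with a mean over 50 normalized reads, and no test was run. Of the 50 genes with the widest ratio, 19 were interferon response genes and 3 were other pathway genes (UBA7, HERC5 and RTP4). OTOG, an extracellular protein related to mucins, had the widest ratio, with 282.6 normalized reads in LF/LCL replicate 2 and 1.07 to 5.20 in the other libraries. HSPA12A, a member of the heat shock protein family, had 823.7 against 75.4 to 98.8. ESM1, a proteoglycan secreted by endothelial cells, had 2312 against 59.0 to 315.5. CCL8, a chemokine for monocytes, had 243.9 against 18.2 to 41.05. LTF, the iron-binding antimicrobial protein lactoferrin, is on the list of secretory cell markers and had 6341 against 225.4 to 1104. HK2, a hexokinase of glycolysis, had 726.9 against 27.9 to 174.7.

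Further entries belong to the interferon system under other names. ISGF3G, an older symbol of IRF9, had 1283 and 4336 normalized reads in the LF/LCL cows, compared with 1855, 1282 and 1486 in the SF/SCL cows. LGP2, an RNA helicase related to RIG-I, had 527.7 and 1845 in the LF/LCL cows, compared with 586.4, 537.8 and 690.1 in the SF/SCL cows. OAS1Z, a further oligoadenylate synthetase copy, had 1085 and 5978 in the LF/LCL cows, compared with 1825, 386.2 and 423.9 in the SF/SCL cows. In all 3 the highest library was LF/LCL replicate 2, and LF/LCL replicate 1 was within the SF/SCL range or below it.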
